A study of Mus musculus with 21 samples.

Results

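The genes examined here encode the molecules that show peptides to T cells. They are 7 genes of the MHC class II pathway (H2-Aa, H2-Ab1, H2-Eb1, H2-DMa, H2-DMb1, Cd74 and Ciita) and 3 genes of the MHC class I molecule (H2-K1, H2-D1 and B2m). They were found as the non-control probes whose gene name on the array is 1 of these 10 symbols. All 10 were present, with 12 of the 39429 non-control probes, and all 10 were among the 23703 genes tested. H2-K1 and H2-Ab1 had 2 probes each, and every probe was well above background on all 21 arrays. The rule uses names and no measured value.

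RNA of mouse liver and liver tumours, all of C57BL/6J background, was labelled with Cy3 and read on one-colour Agilent microarrays, 1 array per sample. The KO tumour group held 6 tumours of 5 untreated Trp53 knockout mice, labelled HCC/CCC, which joins hepatocellular and cholangiocellular (bile duct type) carcinoma in 1 label and does not say which tumour held which. The DEN tumour group held 7 tumours, labelled HCC, of 5 mice with wild-type Trp53 that were injected with the liver carcinogen N-nitrosodiethylamine (DEN) into the peritoneum, 10 µg per g of body weight, at day 15. The KO liver group held livers of 4 untreated Trp53 knockout mice and the WT liver group livers of 4 untreated Trp53 wild-type mice. The sources used here do not say which cells lost Trp53, nor the sex or age at sampling. DEN tumours differ from KO tumours in treatment as well as in genotype, and these cannot be told apart. Tumours of 1 mouse, by the number in their titles, were averaged, so that each group holds 5, 5, 4 and 4 mice in the order above.

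Class II molecules are pairs of an alpha and a beta chain that carry peptides from taken-up proteins to the surface of dendritic cells, macrophages and B cells, where CD4+ T cells read them. Ciita is the coactivator that switches the whole pathway on, Cd74 is the invariant chain that guards the peptide groove, and H2-DM exchanges its last fragment for a peptide in the endosome. Class I molecules are made by nearly all nucleated cells, hepatocytes included, and show peptides from within the cell to CD8+ T cells, with B2m as their shared light chain. Interferon-gamma raises both pathways, and tumours with low class I are known from many tissues.

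Levels below are log2 processed signals minus the 75th percentile of the same array, so a level of 0 is the signal of the probe at that percentile and 1 unit is a 2-fold change. A level belongs to its own probe and is compared between mice, never between genes. The targeted gene followed the labels: Trp53 lay at -5.35 to -4.13 in KO tumours, against -2.75 to -2.48 in DEN tumours, while KO livers had -6.47 to -4.91, against -3.85 to -3.31 in WT livers. In intensity units the 75th percentile itself lay at 951 to 4258 for KO tumours, 512 to 884 for DEN tumours, 499.6 to 685 for KO livers and 476 to 729 for WT livers. The number of mice limits the precision of the values below, and for dim probes such as that of Ciita so does the signal over background. Each of the 6 slides held 1 group, so slide and group cannot be told apart except through the 2 slides of each tumour group.

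One liver stood apart. WT liver mouse 4 had a mean level of the 7 class II genes of 1.45 above the mean of the 8 livers, against -0.42, 0.42 and -0.38 in WT liver mice 1 to 3. Its summed level of 5 leukocyte markers (Ptprc, Coro1a, Laptm5, Cd52 and Cd53), in multiples of the 75th percentile, was 18.4, against 4.60, 5.07 and 3.58 in WT liver mice 1 to 3. Its summed level of 8 B cell markers was 8.35, against 1.70, 1.91 and 1.49. Why this mouse differed was not tested. Results of the 10 genes that rest on WT livers are given with it, and the main ones also without it.

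The letters of the probes were compared with those of the probes of other genes on the array, not with the whole RNA of those genes. Of the 12 probes, 9 shared no stretch of 15 or more bases with a probe of another gene, and the 3 that did were those of Ciita and H2-Eb1 and the second probe of H2-K1. The Ciita probe shared such stretches with 12 probes of other genes, the longest being 26 bases with a probe of Odz1. That of H2-Eb1 shared 15 bases with 1 probe, of Hspb1. The second probe of H2-K1 (mm9 chr17:34133984-34134043, minus strand) is shown because the 29 bases in capitals also stand in a probe of H2-T23, another class I gene. The 2 probes of H2-Ab1 overlap by 51 bases and differ there at 1 base, T51C, counted from 1 at the 5′ end of the first probe; the 30 bases around it (mm9 chr17:34406326-34406355, plus strand) are shown with that base in capitals.
H2-K1 second probe: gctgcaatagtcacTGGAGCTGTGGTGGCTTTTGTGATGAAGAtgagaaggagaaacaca
H2-Ab1 first probe: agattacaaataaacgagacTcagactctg
H2-Ab1 second probe: agattacaaataaacgagacCcagactctg
Whether RNA of other genes adds to the signal of these probes was not tested, also for those without such a stretch. The first H2-K1 probe, printed in 10 spots, shared no such run with another gene's probe. It stands for the gene below because its mean level was the higher of the 2.

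In KO tumours the whole class II pathway stood far above KO livers. All 7 class II genes rose, by 3.87-fold (Ciita) to 12.4-fold (Cd74), and in each of them every KO tumour mouse lay above every KO liver mouse. Of all genes tested, 51% passed the threshold in this comparison, 21.5% as higher and 29.5% as lower, and 17.9% had KO tumour mice that all lay above the KO liver mice (24.8% had them all lower). The median log2 fold change of the 7 genes was 2.92, against -0.22 over all genes. Adjusted p-values here and below are those of limma with Benjamini-Hochberg adjustment over all 23703 genes, with a threshold of 0.05.

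The alpha chain gene H2-Aa (probe at mm9 chr17:34421285-34421344) had levels of 2.0, 1.52, 3.0, 1.74 and 3.46 in KO tumour mice 1 to 5, and 0.00, 0.88, 0.56, 0.47 and 0.37 in DEN tumour mice 1 to 5. In KO livers it had -0.88, -0.88, -1.22 and -1.37, and in WT livers -0.89, -0.17, -1.04 and 1.14. The 2 tumour groups did not overlap, and WT liver mouse 4 lay above every DEN tumour mouse. H2-Aa rose by 3.43 (SE 0.43) on the log2 scale in KO tumours against KO livers (adjusted p = 6.4e-06).

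Its partner H2-Ab1, the beta chain of the same molecule (probes at mm9 chr17:34406296-34406355 and chr17:34406305-34406363), had levels of 6.17, 5.72, 7.0, 6.28 and 6.46 in KO tumours, and 4.01, 5.01, 4.82, 4.84 and 4.78 in DEN tumours. KO livers had 3.53, 3.64, 3.26 and 3.20, and WT livers 3.36, 4.32, 3.31 and 5.15. KO tumours lay above all other mice, and DEN tumour mouse 1 lay below the other DEN tumours. The rise against KO livers was 2.92 (SE 0.35, adjusted p = 3.6e-06), and 2.77 (adjusted p = 8.8e-06) by its second probe, which carries the other base.

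H2-Eb1 is the beta chain of the second class II molecule, whose alpha chain gene is known to be inactive in C57BL/6 mice. Its level (probe at mm9 chr17:34453075-34453134) was 6.10 to 7.47 in KO tumours and 4.57 to 5.56 in DEN tumours, against 3.88 to 4.34 in KO livers and 3.69 to 5.59 for WT livers. H2-Eb1 rose by 2.75 (SE 0.36, adjusted p = 8.7e-06) in KO tumours against KO livers. The gene for a chain that is known to lack its partner in this strain thus rose with the others.

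Both genes of the loading molecule H2-DM rose. H2-DMb1 (probe at mm9 chr17:34297109-34297168) had levels of 3.35, 2.50, 3.92, 3.18 and 3.75 in KO tumours, and 0.78, 1.30, 0.93, 1.27 and 0.91 in DEN tumours. KO livers had 0.37, 0.40, -0.05 and 0.22, and WT livers -0.04, 0.82, -0.00 and 1.26. This gene left the widest gap between the tumour groups among the 7, and its rise against KO livers was 3.1 (SE 0.30, adjusted p = 4.9e-07). Its partner H2-DMa, whose probe spans mm9 chr17:34274300-34274863 with an intron, had -0.14 to 0.80 in KO tumours and -1.67 to -1.22 in DEN tumours, against -2.86 to -2.41 in KO livers and -2.67 to -1.08 for WT livers. H2-DMa rose by 2.91 (SE 0.29, adjusted p = 6.6e-07) in KO tumours against KO livers.

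Cd74, the invariant chain, on chromosome 18, had levels of 5.12, 4.28, 5.62, 4.60 and 5.43 in KO tumours, and 2.18, 3.32, 2.95, 2.91 and 2.65 in DEN tumours. In KO livers it had 1.29, 1.69, 1.18 and 1.34, and in WT livers 1.49, 2.21, 1.66 and 3.57. Of the 10 genes it had the largest rise against KO livers, 3.64 on the log2 scale (SE 0.38, adjusted p = 1e-06). WT liver mouse 4 stood above every DEN tumour.

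Ciita, the coactivator (probe at mm9 chr16:10526568-10526627), was the weakest of the 7. Its only probe shares stretches of up to 26 bases with 12 probes of other genes, and whether their RNA adds to its signal was not tested. Ciita had levels of -1.52, -1.77, -1.28, -2.05 and -0.86 in KO tumours, and -3.40, -2.59, -2.38, -2.16 and -2.47 in DEN tumours. KO livers had -3.49, -3.43, -3.54 and -3.33, and WT livers -4.25, -2.97, -3.91 and -1.62. The highest DEN tumour mouse and the lowest KO tumour mouse were only just apart. Its rise against KO livers was 1.95 (SE 0.42, adjusted p = 0.00089), but 1.07 (adjusted p = 0.12) with normexp background correction before the 75th percentile scaling and 2.06 (adjusted p = 0.055) with the slide as a random block.

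**Figure D1:**
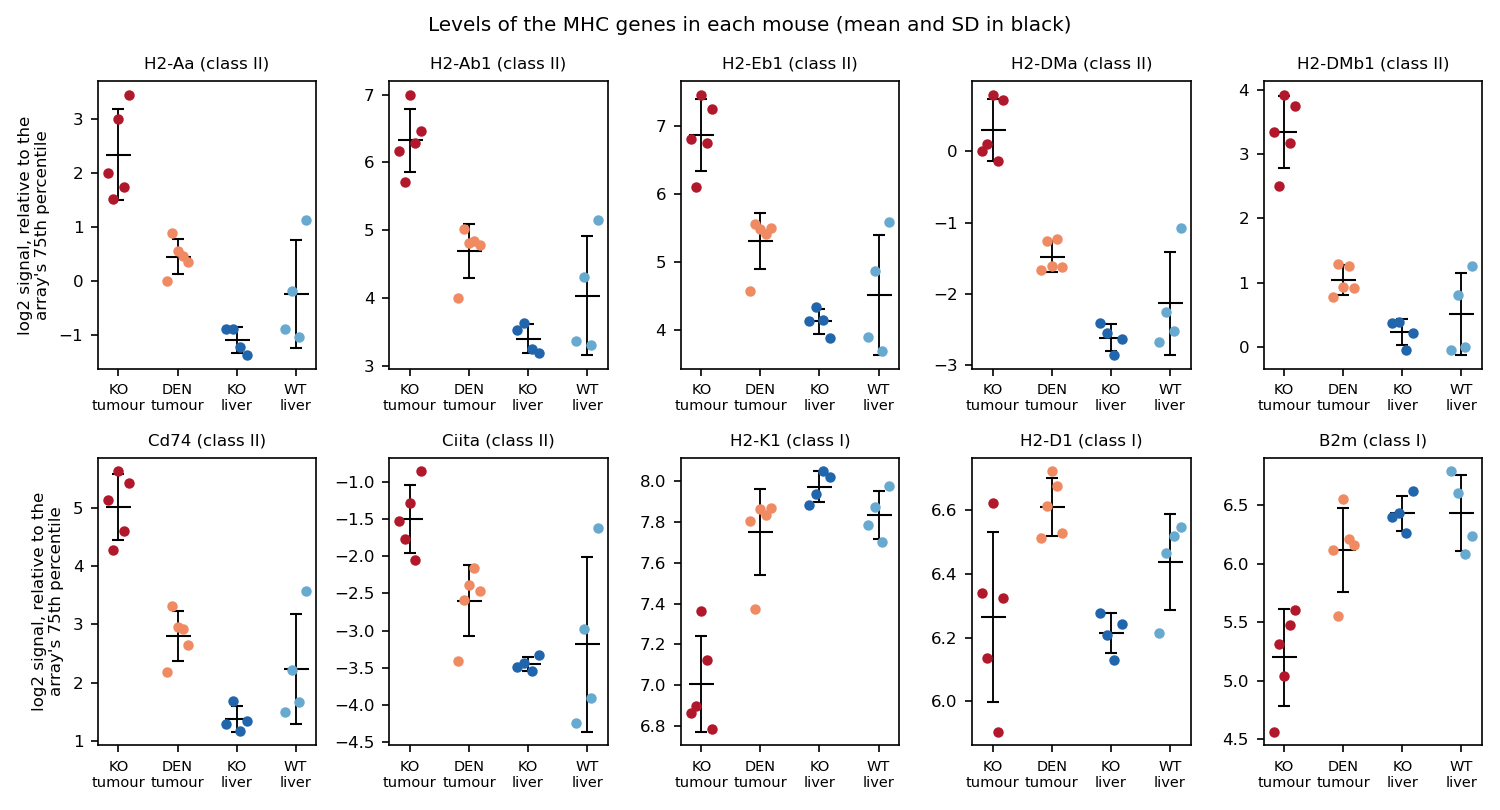
Levels of the 10 genes, 1 panel each: log2 signal relative to the array's 75th percentile (vertical axis, own range per panel) by group, with 1 point per mouse and the mean and SD in black (n = 5, 5, 4 and 4 mice). In the 7 class II panels the KO tumour mice sit above all DEN tumour and KO liver mice, and for H2-K1 they sit lower than all of them.

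The plot of the levels by mouse also shows how uneven the WT livers were. The SD of Ciita was 0.46 in KO tumours, 0.48 in DEN tumours, 0.09 in KO livers and 1.18 in WT livers. That of Cd74 was 0.56, 0.42, 0.22 and 0.94 in the same order. For each of the 10 genes the SD was smallest in KO livers.

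Class I genes did not follow class II. On the 75th percentile scale H2-K1 and B2m fell in KO tumours against KO livers and H2-D1 did not pass the test, so that 2 of 3 fell, where 29.5% of all genes were called lower and 24.8% had KO tumour mice that all lay lower, as these 2 genes did. These directions depend on how arrays were scaled: after normexp background correction and quantile normalization (below called quantile scaling) H2-K1 turned to 0.18 (adjusted p = 0.30), B2m shrank to -0.34 (adjusted p = 0.19) and H2-D1 passed the test as higher, at 1.07 (adjusted p = 0.001). Quantile scaling moved the median of all genes in this comparison to -0.01. Relative to that median, H2-K1 stood at -0.75 on the 75th percentile scale and at 0.20 under quantile scaling, and B2m at -1.01 and -0.33.

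H2-K1 is the heavy chain of the K class I molecule. Its level (probe at mm9 chr17:34133055-34133114) was 6.86, 6.90, 7.36, 7.13 and 6.79 in KO tumours, and 7.80, 7.37, 7.86, 7.83 and 7.87 in DEN tumours. In KO livers it was 7.88, 7.94, 8.05 and 8.02, and in WT livers 7.79, 7.87, 7.70 and 7.97. KO tumour mice lay below the other 13 mice, but KO tumour mouse 3 and DEN tumour mouse 2 almost met; 20.8% of genes had KO tumour mice that all lay lower than the DEN tumour mice. The log2 fold change against KO livers was -0.97 (SE 0.16, adjusted p = 8.9e-05), with the turned sign under quantile scaling given above. By the second probe, which shares 29 bases with H2-T23, it was -0.64 (adjusted p = 0.002).

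B2m (probe at mm9 chr2:121978401-121978460) had levels of 4.56, 5.32, 5.04, 5.47 and 5.60 in KO tumours, and 6.12, 5.55, 6.55, 6.21 and 6.16 in DEN tumours. KO livers had 6.40, 6.43, 6.26 and 6.62, and WT livers 6.79, 6.61, 6.08 and 6.24. The tumour groups overlapped through KO tumour mouse 5 and DEN tumour mouse 2, while KO tumours and KO livers did not overlap. The log2 fold change of B2m against KO livers was -1.23 (SE 0.24, adjusted p = 0.00036). It stayed below 0 in all 24 alternatives tried for this comparison and passed the threshold in 22 of them.

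The heavy chain gene of the D molecule, H2-D1 (probe at mm9 chr17:35403886-35403945), had levels of 6.34, 6.13, 6.62, 5.90 and 6.32 in KO tumours, and 6.51, 6.61, 6.72, 6.68 and 6.53 in DEN tumours. KO livers had 6.28, 6.21, 6.13 and 6.24, and WT livers 6.22, 6.46, 6.52 and 6.55. All 4 groups lay within 1 unit, and KO tumours ran through the range of the KO livers. Its log2 fold change in KO tumours against KO livers was 0.05, with a 95% confidence interval of -0.28 to 0.38 (adjusted p = 0.81), and 1.07 under quantile scaling.

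Class II genes were also higher in KO tumours than in DEN tumours. All 7 passed the test as higher, where 57.3% of all genes passed it, 19.8% as higher and 37.5% as lower. In all 7 the mice of the 2 groups did not overlap, which held in that direction for 10.8% of genes. The log2 fold change was 2.30 (SE 0.28) for H2-DMb1 (adjusted p = 8e-06) and 2.21 (SE 0.36) for Cd74 (adjusted p = 8.9e-05). H2-Aa stood 3.70-fold higher, H2-DMa 3.42-fold, H2-Ab1 3.1-fold and H2-Eb1 2.97-fold, with adjusted p-values of 5.8e-05 to 0.00096. Ciita was 2.15-fold higher (adjusted p = 0.024). The Ciita call is weak and passed in 19 of 25 alternatives: its adjusted p was 0.17 with the slide as a random block, 0.12 with scan day as a fixed block, 0.053 without the KO tumours of the brighter slide (mice 4 and 5), 0.067 without DEN tumour mouse 1 and 0.062 without KO tumour mouse 5. With normexp background correction before the 75th percentile scaling its log2 fold change was 0.16 (adjusted p = 0.79).

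Of the class I genes, H2-K1 was 1.67-fold lower in KO tumours than in DEN tumours (adjusted p = 0.00059) and B2m 1.89-fold lower (adjusted p = 0.0023), but under quantile scaling H2-K1 turned to 0.17 on the log2 scale and B2m moved to -0.31 (adjusted p = 0.30 and 0.20). The second H2-K1 probe had -0.38 on the log2 scale (adjusted p = 0.032). H2-D1 had a log2 fold change of -0.34 (adjusted p = 0.052) and one of 0.38 (adjusted p = 0.16) under that scaling. On the 75th percentile scale the 3 class I genes thus had the opposite sign to the 7 class II genes between the tumours, and under quantile scaling only B2m did.

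Some KO and DEN tumours were scanned on the same day, with all KO livers, which allowed a comparison within a day. Within that day, KO tumour mice 1 to 3 against the 3 DEN tumours scanned then gave log2 fold changes of 2.34 for Cd74 (adjusted p = 0.0015), 1.61 for H2-Aa (adjusted p = 0.0084), 1.10 for Ciita (adjusted p = 0.046), -0.71 for H2-K1 (adjusted p = 0.012) and -1.23 for B2m (adjusted p = 0.0015). Against KO livers it gave 3.63 for Cd74 (adjusted p = 4.8e-05), 3.26 for H2-Aa (adjusted p = 7.1e-05), 1.92 for Ciita (adjusted p = 0.002), -0.93 for H2-K1 (adjusted p = 0.0016) and -1.46 for B2m (adjusted p = 0.00025). In both comparisons 9 of the 10 genes passed the threshold within the day. With all mice and scan day as a fixed block, Ciita had the same 1.10 against DEN tumours but did not pass (adjusted p = 0.12), and 8 of the 10 genes did. WT livers were scanned alone on another day, so their scan day and group cannot be told apart.

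**Figure D2:**
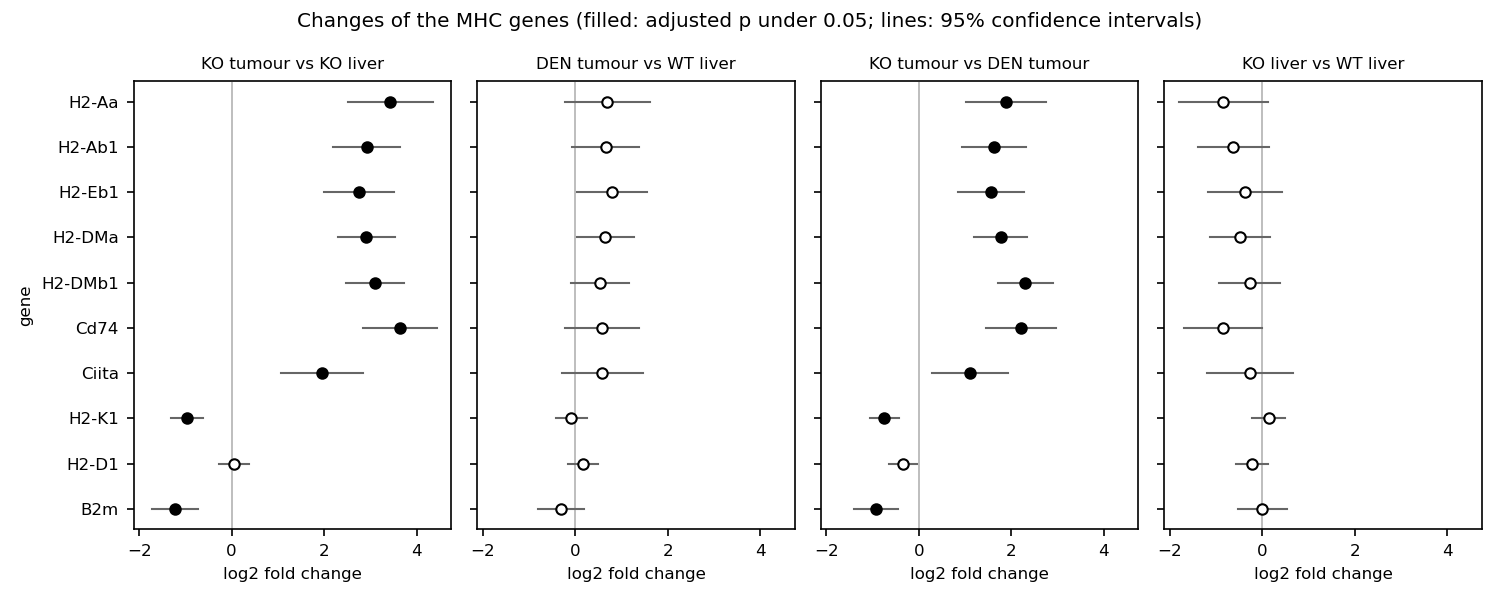
Log2 fold change (horizontal axis) of the 10 genes (rows) in 4 comparisons, with 95% confidence intervals as lines and filled points where the adjusted p is under 0.05. The KO tumour panels separate the 7 class II genes, all right of 0, from H2-K1 and B2m, left of 0, while no point is filled in the DEN tumour against WT liver and KO liver against WT liver panels.

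In DEN tumours against WT livers no gene of the 10 passed the test, where 21.5% of all genes did. The 7 class II genes had log2 fold changes of 0.53 to 0.80, and their median of 0.65 stood against 0.05 over all genes. At limma's p before adjustment, H2-Eb1 (0.80) and H2-DMa (0.65) alone were under the threshold, with an adjusted p of 0.13 and 0.12. H2-K1, H2-D1 and B2m had -0.09, 0.17 and -0.31. The intervals were wide: that of Cd74 ran from -0.23 to 1.37 and that of H2-Aa from -0.22 to 1.61.

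This outcome turned on WT liver mouse 4. Without it, 6 of the 7 class II genes passed the test as higher in DEN tumours, where 9.85% of all genes were called higher and 19.4% were called in all. H2-Eb1 then had 1.16 on the log2 scale (adjusted p = 0.022), H2-Aa 1.16 (adjusted p = 0.046), Ciita 1.11 (adjusted p = 0.026), H2-Ab1 1.03 (adjusted p = 0.027), Cd74 1.01 (adjusted p = 0.033) and H2-DMa 1.0 (adjusted p = 0.0072). H2-DMb1 had 0.78 (adjusted p = 0.076), and none of the 3 class I genes passed. No other mouse left out made any of the 10 genes pass in this comparison.

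KO livers and WT livers, which differ in Trp53 genotype and hold no labelled tumour, gave no call among the 10 genes, where 8.51% of all genes passed the test. The class II genes lay at log2 fold changes of -0.86 (Cd74) to -0.26 (Ciita), with a median of -0.48 against -0.05 over all genes, and Cd74 alone was under the threshold before adjustment, with an adjusted p of 0.21. Without WT liver mouse 4 these values lay between -0.41 (Cd74) and 0.26 (Ciita), and 3.81% of all genes were called. Class I values with all mice were 0.14 for H2-K1, -0.22 for H2-D1 and -0.00 for B2m. Their 95% confidence intervals were -0.22 to 0.49 for H2-K1, -0.57 to 0.12 for H2-D1 and -0.53 to 0.53 for B2m. Without WT liver mouse 4 the class I values were 0.19, -0.185 and -0.065 in the same order.

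The change from liver to tumour differed between the KO and DEN models. As the difference of the 2 log2 fold changes, 6 of 7 class II genes passed the test as more strongly raised in KO mice, where 12.7% of all genes passed in that direction and 30.9% in all. The difference was 3.07 (SE 0.53) for Cd74 (adjusted p = 0.00069), 2.73 for H2-Aa (adjusted p = 0.0035), 2.57 for H2-DMb1 (adjusted p = 0.00046), 2.26 for H2-Ab1 (adjusted p = 0.0029), 2.26 for H2-DMa (adjusted p = 0.00088) and 1.95 for H2-Eb1 (adjusted p = 0.0087). That of Ciita was 1.37 (adjusted p = 0.088). Among class I genes the difference was -0.88 for H2-K1 (adjusted p = 0.0081) and -0.92 for B2m (adjusted p = 0.047), but 0.21 and -0.15 under quantile scaling (adjusted p = 0.47 and 0.73), and -0.12 for H2-D1 (adjusted p = 0.70). The second H2-K1 probe had a difference of -0.27 and did not pass (adjusted p = 0.36). In that direction 18.2% of all genes passed.

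None of these 8 differences passed with the slide as a random block, where the class II values ran from 1.98 (H2-Eb1, adjusted p = 0.18) to 3.15 (Cd74, adjusted p = 0.064). Without WT liver mouse 4, Cd74 had a difference of 2.62 (adjusted p = 0.00073), H2-K1 one of -0.93 (adjusted p = 0.011) and B2m one of -0.85 (adjusted p = 0.088), and all 6 class II genes passed again, where 25.8% of all genes passed, 10.4% as more strongly raised in KO mice and 15.4% in the other direction. The comparisons above share their groups, so their values are not separate evidence.

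**Figure D3:**
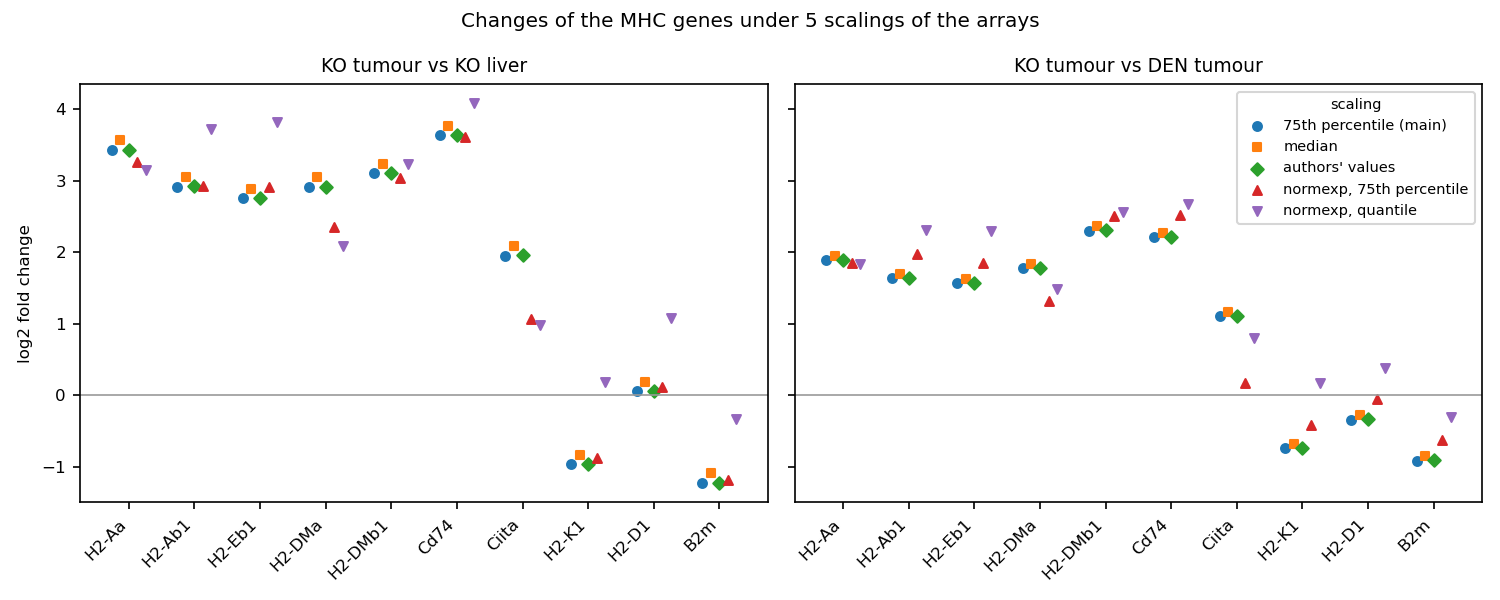
Log2 fold change (vertical axis) of the 10 genes under 5 scalings of the arrays (marker shapes), for KO tumour against KO liver (left) and KO tumour against DEN tumour (right). The 7 class II genes stay above 0 under all 5 scalings, while normexp with quantile scaling lifts H2-K1 above 0 in both panels and H2-D1 to 1.07 against KO liver.

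The plot of the scalings shows which statements depend on the reference level. Between 2.09 and 4.08, H2-Aa, H2-Ab1, H2-Eb1, H2-DMa, H2-DMb1 and Cd74 kept a positive log2 fold change against KO livers in all 24 alternatives, and the highest adjusted p among them was 0.0021. Against DEN tumours they ran from 1.32 to 2.68 over 25 alternatives, with a highest adjusted p of 0.029. H2-K1 ran from -1.06 to 0.18 against KO livers and from -0.84 to 0.17 against DEN tumours. H2-D1 ran from -0.04 to 1.07 and from -0.43 to 0.38.

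Within a group the class II genes moved together from mouse to mouse. Over the 18 mice their 21 pairs had Pearson correlations of 0.89 to 0.99, and 0.78 to 0.98 after each group's mean was removed. The 3 class I pairs ran from 0.07 to 0.85, and from -0.31 to 0.29 within groups. All values of a mouse share 1 array or 2 averaged arrays and 1 scaling, so these correlations are a description.

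Tumours of the same mouse differed in class II as well. The 2 tumours of KO tumour mouse 5 had H2-Aa levels of 4.16 and 2.75 and Ciita levels of -0.17 and -1.55, while their H2-K1, H2-D1 and B2m levels differed by 0.03, 0.03 and 0.13. The tumours of DEN tumour mouse 4 had Cd74 levels of 2.31 and 3.51, and those of DEN tumour mouse 5 had 2.98 and 2.32. In DEN tumour mouse 5 the class I genes H2-K1 and H2-D1 also differed, by 0.65 and 0.53. The tumours of KO tumour mouse 5 shared a slide and a scan day, but those of each of these 2 DEN mice lay on different slides and days, so tumour and slide cannot be told apart there.

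The upstream bases of the 2 classes were searched for the letters of known sites, some of which stand in both. Of the 10 genes, 7 have an entry in the RefSeq promoter table (GRCm38.p6), and in its 250 upstream bases H2-Aa, H2-Eb1 and H2-DMb1 hold the letters CTNGNAACT of an X box followed 26 or 27 bases on by the Y box ATTGG. The X box is known as the site of the RFX complex and the Y box as that of NF-Y, onto which Ciita docks. H2-K1 and H2-D1 hold GGGATTCCC, the letters of the kappaB site, and H2-K1, H2-D1 and B2m hold TGAAACTG, part of an interferon-stimulated element, with TGACG and ATTGG nearer the start. Parts of these promoters are shown, 5′ to 3′ along the gene, to set the letters of the 2 classes side by side, with the matches on either strand in capitals (in H2-Aa the capitals TGACGTCA are 2 overlapping TGACG matches, 1 on each strand).
H2-Aa promoter (chr17:34287857-34287917, minus strand): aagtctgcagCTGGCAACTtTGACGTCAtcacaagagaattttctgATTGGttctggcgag
H2-Eb1 promoter (chr17:34305763-34305846, plus strand): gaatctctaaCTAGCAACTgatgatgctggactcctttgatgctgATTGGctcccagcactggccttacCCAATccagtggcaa
H2-DMb1 promoter (chr17:34153084-34153144, plus strand): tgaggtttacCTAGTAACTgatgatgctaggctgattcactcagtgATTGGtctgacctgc
H2-K1 promoter (chr17:34000349-34000467, minus strand): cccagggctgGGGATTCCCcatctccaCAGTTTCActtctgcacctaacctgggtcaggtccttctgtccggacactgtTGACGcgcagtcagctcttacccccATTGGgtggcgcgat
H2-D1 promoter (chr17:35262914-35263055, plus strand): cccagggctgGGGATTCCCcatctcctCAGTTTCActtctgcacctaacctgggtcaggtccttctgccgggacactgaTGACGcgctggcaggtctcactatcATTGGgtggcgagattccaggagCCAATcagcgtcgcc
B2m promoter (chr2:122147537-122147648, plus strand): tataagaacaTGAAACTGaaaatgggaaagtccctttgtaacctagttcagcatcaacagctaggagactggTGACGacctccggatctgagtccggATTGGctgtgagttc

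Over the 32851 entries of the table, searched on both strands of the 250 upstream bases, CTNGNAACT stood in 3.47%, ATTGG in 33.8%, TGACG in 17.8%, GGGATTCCC in 0.301% and TGAAACTG in 1.12%. CTNGNAACT followed 10 to 30 bases on by ATTGG stood in 15 entries (0.0457%). The letters CTNGNAACT were taken from these class II promoters, so their presence there is no finding. The 2 entries of H2-DMa, which had a log2 fold change of 2.91 against KO livers, held no CTNGNAACT in this window and 1 of them held an ATTGG. The stretches of H2-K1 and H2-D1 begin with the same letters, and the 2 genes had different log2 fold changes against KO livers, -0.97 and 0.05 (0.18 and 1.07 under quantile scaling). These matches are letters in a window and were not measured as binding, and their part in the changes was not tested.

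Counts of the gene lists below stand against the shares over all genes, of which 21.5% rose and 29.5% fell in KO tumours against KO livers, 19.8% were higher and 37.5% lower than in DEN tumours, and 10.6% rose and 10.9% fell in DEN tumours against WT livers. The factors known to sit on the X and Y boxes did not rise as a group. Of 7 genes of that complex (Rfx5, Rfxank, Rfxap, Nfya, Nfyb, Nfyc and Creb1), 1 rose and 3 fell in KO tumours against KO livers, with a median log2 fold change of -0.22, equal to that of all genes. Nfya, a subunit of NF-Y, rose by 2.91 (SE 0.35, adjusted p = 4.1e-06) and was 2.19 higher than in DEN tumours (adjusted p = 4.9e-05). Its partners Nfyb and Nfyc had -1.32 (adjusted p = 0.00041) and -0.66 (adjusted p = 0.0059) against KO livers, and Nfyc did not pass under quantile scaling (-0.22, adjusted p = 0.24). A second Nfyc probe had -0.17.

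Genes that serve class II loading moved in both directions. Of 7 lysosomal genes 4 rose and 2 fell against KO livers (median 0.99). Ctss, the protease that trims the invariant chain in antigen-presenting cells, rose by 2.60 (SE 0.30, adjusted p = 3.2e-06), and Ifi30, the thiol reductase of the lysosome, by 2.94 (SE 0.36, adjusted p = 5.6e-06). Ctsl, another cathepsin, had -1.31 (adjusted p = 5.1e-05) and Ctsb -0.67 (adjusted p = 0.0049), but -0.38 and 0.25 under quantile scaling, where neither passed. Against DEN tumours Ifi30 was 2.43 higher (adjusted p = 2.9e-05) and Ctss 1.65 higher (adjusted p = 0.00017), while Ctsl was lower, at -1.35 (adjusted p = 3.2e-05; -0.62 and adjusted p = 0.024 under quantile scaling).

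Of the other genes of the class II region, all 4 tested rose in KO tumours against KO livers, among them H2-Oa by 2.73 (SE 0.54, adjusted p = 0.00044), a chain of the inhibitor of H2-DM, and H2-Eb2 by 4.00 (SE 0.91, adjusted p = 0.0015). With normexp before the 75th percentile scaling only 1 of the 4 passed. Against DEN tumours 2 of 4 were called higher, H2-Oa at 2.66 (adjusted p = 0.00035) and H2-DMb2 at 2.65 (adjusted p = 0.0075), but H2-DMb2 had -0.89 with normexp before the 75th percentile scaling, and 2.0 without KO tumour mouse 5. H2-DMb2 was above background on 5 of 6 KO tumour arrays, 1 of 7 DEN tumour arrays, 1 WT liver array and no KO liver array. It thus passed the filter on dim probes only through the KO tumours, and its values are differences from the background. H2-Eb2 was above background on no KO liver array. None of the 4 passed in DEN tumours against WT livers. H2-Ea and H2-Ea-ps were not tested.

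Of 18 other class I and class I-like genes, 1 rose and 11 fell in KO tumours against KO livers (median -0.72), and 1 was higher and 12 were lower than in DEN tumours (median -0.71). Over all genes the lower shares were 29.5% and 37.5%, and the medians -0.22 and -0.33. Under quantile scaling these counts were 3 and 7 (median 0.09) against KO livers, and 2 and 7 (median -0.18) against DEN tumours. Cd1d1, which presents lipids to natural killer T cells, fell by 4.32 (SE 0.47, adjusted p = 1.5e-06), and Hfe, a regulator of iron uptake, fell by 1.83 (SE 0.32, adjusted p = 0.00017), both against KO livers. H2-Q10, a class I protein that hepatocytes secrete, fell by 3.35 against DEN tumours (SE 0.54, adjusted p = 9.2e-05). H2-M3, which presents formylated peptides, was the 1 that rose, by 1.91 against KO livers (SE 0.30, adjusted p = 6e-05) and by 1.08 against DEN tumours (adjusted p = 0.004).

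Of 14 genes of peptide supply and loading for class I, 5 rose and 4 fell against KO livers (median 0.26), and 3 were higher and 2 lower than in DEN tumours (median -0.16). Of these, the 4 that fell against KO livers and the 3 that were higher than in DEN tumours are shares near those of all genes (29.5% and 19.8%). Under quantile scaling 8 rose and 1 fell against KO livers. The peptide transporter genes Tap1 and Tap2 rose by 1.81 (SE 0.26, adjusted p = 2.2e-05) and 1.21 (SE 0.19, adjusted p = 5.9e-05) against KO livers, while the trimming peptidase Erap1 fell by 1.37 (SE 0.22, adjusted p = 6.1e-05). Psme1, a proteasome activator subunit, had -0.72 (adjusted p = 0.0014), but -0.02 (adjusted p = 0.92) under quantile scaling. Tapbp, which bridges the class I molecule and the transporter, was 0.71 higher than in DEN tumours (adjusted p = 0.0078). In DEN tumours against WT livers Tap2 had 0.66 (adjusted p = 0.021; 0.079 without WT liver mouse 1) and the immunoproteasome subunit Psmb8 0.75 (adjusted p = 0.011), 2 of 14 higher and none lower (3 higher without WT liver mouse 4).

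Of 13 genes of interferon-gamma signalling, 8 rose and 1 fell in KO tumours against KO livers (median 1.35), 6 were higher and none lower in KO than in DEN tumours (median 0.55), and 6 rose and 1 fell in DEN tumours against WT livers (median 0.75), as they did without WT liver mouse 4. The higher shares over all genes were 21.5%, 19.8% and 10.6% in the same order. Socs1, a feedback inhibitor of the pathway, rose by 3.43 (SE 0.37, adjusted p = 1.5e-06), and the receptor chain Ifngr2 rose by 2.14 (SE 0.22, adjusted p = 1e-06), both in KO tumours against KO livers. The kinase gene Jak2 was 0.97 higher in KO than in DEN tumours (adjusted p = 2.2e-05). In DEN tumours against WT livers the other receptor chain, Ifngr1, rose by 1.60 (adjusted p = 2.5e-05) and the chemokine Cxcl10 by 1.92 (adjusted p = 0.0036). Irf2, which can oppose Irf1, had -0.79 in KO tumours against KO livers (adjusted p = 0.017; 0.051 without KO liver mouse 4) and -1.31 in DEN tumours against WT livers (adjusted p = 0.0017).

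Costimulatory and checkpoint ligands, which accompany class II on antigen-presenting cells, rose in 6 of the 6 tested against KO livers (median 2.28). Cd40 rose by 3.32 (SE 0.48, adjusted p = 2.4e-05) and Icosl by 2.75 (SE 0.41, adjusted p = 3e-05), though a second Icosl probe had -1.72. Against DEN tumours 5 of 6 were higher (2 of 6 with normexp before the 75th percentile scaling), among them Cd86 at 1.63 (adjusted p = 0.00076) and Cd80 at 1.26 (adjusted p = 0.0012). In DEN tumours against WT livers Cd40 rose by 2.80 (adjusted p = 0.0006) and Icosl by 1.19 (adjusted p = 0.045; -1.07 by its second probe), and 2 of 6 also passed without WT liver mouse 4. The Icosl call was lost without any 1 of DEN tumour mice 2 to 5 or WT liver mice 1 to 3 (adjusted p = 0.053 to 0.16).

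Leukocyte markers rose with class II in KO tumours. All 5 general leukocyte markers rose in KO tumours against KO livers, and all 5 were higher than in DEN tumours. Against DEN tumours Ptprc had 1.09 (adjusted p = 0.035). Without any 1 of DEN tumour mice 1, 3, 4 and 5 its adjusted p was 0.055 to 0.07. Without KO tumour mouse 1, 3 or 5 it was 0.053 to 0.093. In the difference between the KO and DEN models 2 of the 5 markers passed as more strongly raised in KO mice, and 6 of the 7 class II genes did. Over all genes this share was 12.7%. In DEN tumours against WT livers 2 of the 5 rose, and 5 of 5 without WT liver mouse 4. Their summed level was 27.8 to 57.3 in KO tumours and 6.35 to 9.83 in DEN tumours, against 4.61 to 5.82 in KO livers and 3.58 to 18.4 for WT livers. In bulk tissue, more cells of a type and more RNA per cell cannot be told apart, and the part of these markers in the class II results was not tested.

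The markers of single antigen-presenting cell types were less uniform. Of 10 dendritic cell markers 7 rose and none fell against KO livers, and 6 were higher and 1 lower than in DEN tumours (4 and 3 with normexp before the 75th percentile scaling). Their sum was 64.0 to 74.3 in KO tumours and 38.8 to 59.9 in DEN tumours, against 63.1 to 81.8 in KO livers and 42.1 to 92.7 for WT livers, but most of it was the signal of 1 probe, that of Siglech, a marker of plasmacytoid dendritic cells (59.4% to 92% in KO tumours and 98.3% to 98.8% in KO livers). Siglech had -0.36 (adjusted p = 0.20) against KO livers and 0.57 (adjusted p = 0.039) under quantile scaling. Without it the sum was 5.94 to 28.2 in KO tumours and 1.45 to 3.25 in DEN tumours, against 0.944 to 1.23 in KO livers and 1.04 to 2.85 for WT livers. Itgax rose by 5.06 (SE 0.49, adjusted p = 5.7e-07) against KO livers, and Zbtb46, which marks classical dendritic cells, had -0.45 (adjusted p = 0.095) there. Against DEN tumours Zbtb46 had -1.54 (SE 0.20, adjusted p = 1.6e-05), but its second probe had 1.63, and 2.21 against KO livers, so its direction is not settled. Flt3 rose by 2.36 (adjusted p = 0.00016) against KO livers, but its other probes had 0 and -1.31. The Flt3 probe used was above background on no KO liver array. Xcr1, also counted as risen against KO livers, was above background on 5 of 6 KO tumour arrays and 3 of 7 DEN tumour arrays, and on none of the KO or WT liver arrays. It thus passed the filter on dim probes only with the KO tumour arrays.

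Of 11 macrophage and Kupffer cell markers 6 rose and 5 fell against KO livers, with a sum over 10 of them of 47.6 to 245.8 in KO tumours and 28.5 to 115 in DEN tumours, against 85.6 to 106.8 in KO livers and 49.7 to 74.6 for WT livers. C1qa rose by 2.30 (SE 0.30, adjusted p = 9.7e-06). The 5 that fell were Clec4f (-4.67), Cd5l (-4.39), Marco (-3.69), Vsig4 (-3.45) and Timd4 (-3.02), with adjusted p-values of 0.0014 to 0.029. All 5 monocyte markers rose, with a sum of 20.3 to 60.3 in KO tumours and 3.88 to 13.4 in DEN tumours, against 3.23 to 3.75 in KO livers and 2.28 to 4.42 for WT livers. Chil3 made up 49.9% to 83.8% of this sum in KO tumours. Without Chil3 it was 5.65 to 17.8 in KO tumours and 3.46 to 7.72 in DEN tumours, against 3.13 to 3.59 in KO livers and 2.09 to 4.2 for WT livers. Ccr2 was above background on all 6 KO tumour and all 7 DEN tumour arrays and on no KO liver array.

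B cell markers rose in 2 of 8 against KO livers (5 of 8 without WT liver mouse 4, which enters there through the shared spread), and 5 were higher and 2 lower than in DEN tumours (2 and 3 with normexp before the 75th percentile scaling). Cr2, a complement receptor of B cells and follicular dendritic cells, rose by 5.25 (adjusted p = 1.9e-05) and was 4.09 higher than in DEN tumours (adjusted p = 0.00014). The sum of the 8 was 2.45 to 20.7 in KO tumours and 1.04 to 1.64 in DEN tumours, against 0.93 to 1.07 in KO livers and 1.49 to 8.35 for WT livers. Cr2 made up 8.75% to 91.8% of it in KO tumours. Without Cr2 the sum was 0.741 to 12.5 in KO tumours and 0.841 to 1.39 in DEN tumours, against 0.82 to 0.99 in KO livers and 1.33 to 7.9 for WT livers, so these groups overlapped. Ms4a1, which encodes CD20, had 1.58 (adjusted p = 0.069) and Cd79a 1.48 (adjusted p = 0.073; 0.45 by its second probe) against KO livers. Ms4a1 was 1.67 higher than in DEN tumours (adjusted p = 0.040), but its adjusted p was 0.069 to 0.12 without any 1 of DEN tumour mice 1, 3 and 5 and KO tumour mice 3 and 5. Pax5, which defines the B lineage, was above background on 3 of 6 KO tumour arrays, 5 of 7 DEN tumour arrays, no KO liver array and 1 WT liver array. Beside Cr2, the marker that rose against KO livers was Blk (1.67, adjusted p = 0.026). Blk was above background on 5 KO tumour, 2 DEN tumour and 1 WT liver arrays, and on no KO liver array. It thus passed the filter on dim probes only with the KO tumour arrays, and it also counts among those higher than in DEN tumours. Plasma cell markers rose in 3 of 5, with a sum of 6.64 to 63.0 in KO tumours and 7.99 to 35.5 in DEN tumours, against 6.51 to 7.01 in KO livers and 8.69 to 32.4 for WT livers. Jchain made up 7.3% to 84% of this sum in KO tumours. Without Jchain it was 4.85 to 11.2 in KO tumours and 7.68 to 30.5 in DEN tumours, against 6.15 to 6.64 in KO livers and 7.83 to 12.8 for WT livers.

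T and NK cell markers moved in both directions: 4 rose and 1 fell of 11 against KO livers, and 2 were higher and 4 lower than in DEN tumours, where the shares over all genes were close to these (19.8% and 37.5%). The chains of the T cell receptor complex disagreed. Cd3d rose by 3.23 (adjusted p = 7.7e-05) and Cd3g by 3.04 (adjusted p = 0.00031) against KO livers, and they were 2.27 (adjusted p = 0.001) and 2.24 (adjusted p = 0.0022) higher than in DEN tumours. Cd3e had 0.15 (adjusted p = 0.67) against KO livers and -1.48 (SE 0.26, adjusted p = 0.00019) against DEN tumours. The sum of the 11 was 5.39 to 27.5 in KO tumours and 23.5 to 102 in DEN tumours, against 16.8 to 23 in KO livers and 22.6 to 28.6 for WT livers, but 72.4% to 95.4% of it in DEN tumours was the signal of Cd4, which was lower in KO than in DEN tumours (-3.79, adjusted p = 0.0006). Without Cd4 the sum was 3.2 to 19 in KO tumours and 4.69 to 7.33 in DEN tumours, against 2.37 to 3.09 in KO livers and 2.49 to 6.05 for WT livers.

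All 8 hepatocyte markers fell in KO tumours against KO livers, with a sum of 386 to 819 in KO tumours and 1348 to 2137 in DEN tumours, against 2852 to 3366 in KO livers and 2325 to 2902 for WT livers. All 5 bile duct markers rose, with a sum of 45.3 to 241 in KO tumours and 6.92 to 34.1 in DEN tumours, against 1.58 to 2.73 in KO livers and 1.49 to 2.95 for WT livers. Spp1 made up 82.2% to 96.4% of this sum in KO tumours and 76.7% to 94.4% in DEN tumours. Without Spp1 it was 4.48 to 24.7 in KO tumours and 1.03 to 1.9 in DEN tumours. The livers then had 0.208 to 0.402 (KO) and 0.311 to 0.602 (WT). Alb fell by 2.94 (SE 0.44, adjusted p = 3.5e-05) and Krt19 rose by 4.64 (SE 1.10, adjusted p = 0.0022). KO tumour mouse 4 had a Krt19 level of -3.98, against 1.59 to 3.41 in the other 4 KO tumour mice and -3.54 to -2.90 in KO livers, and without this mouse the rise was 5.98 (adjusted p = 2.2e-07). Hepatocyte markers thus moved with H2-K1 and B2m on the 75th percentile scale (under quantile scaling H2-K1 had 0.18 and hepatocyte markers still fell in 7 of 8), and their part in the class I values was not tested.

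**Figure D4:**
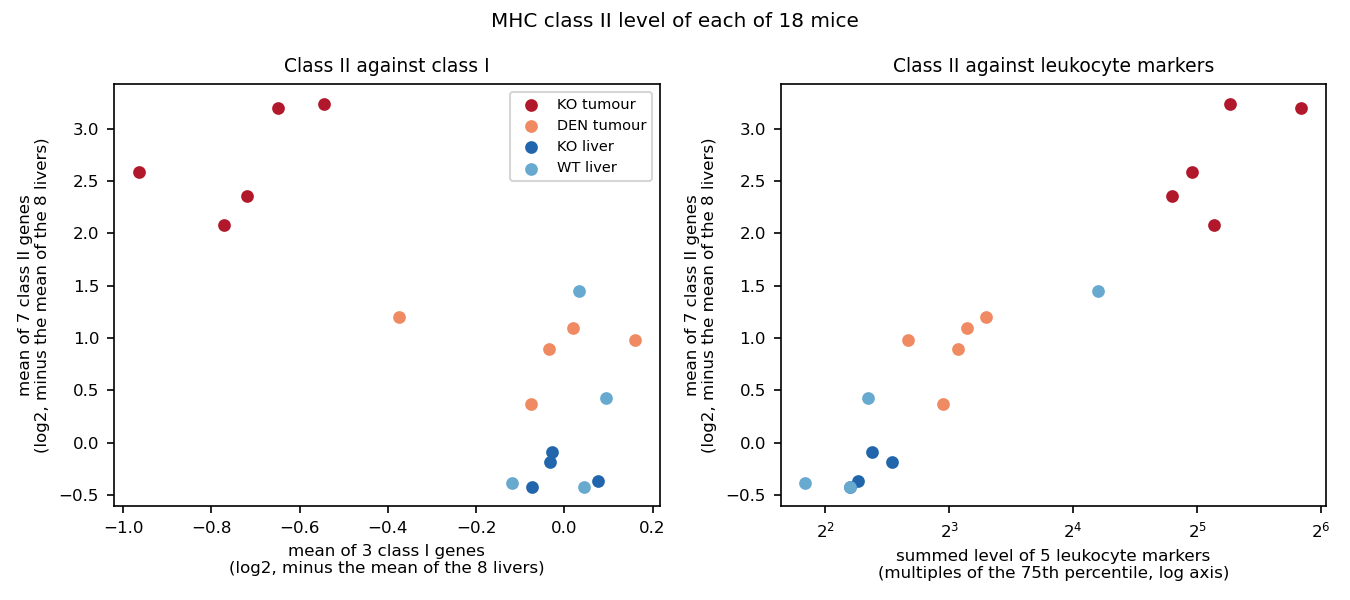
Mean level of the 7 class II genes (vertical axis, log2 units above the mean of the 8 livers) in each of 18 mice, against the mean of the 3 class I genes on the same scale (left) and against the summed level of 5 leukocyte markers (right, log axis, multiples of the 75th percentile), coloured by group. KO tumours stand alone at high class II and low class I on the 75th percentile scale, and in the right panel WT liver mouse 4 lies between the DEN tumours and the KO tumours on the leukocyte axis.

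The plot of the class means gives each mouse 1 point. The class II mean was 2.58, 2.08, 3.24, 2.36 and 3.19 in KO tumour mice and 0.37, 1.20, 0.98, 1.10 and 0.89 in DEN tumour mice, against -0.19, -0.09, -0.42 and -0.36 in KO livers. The class I mean was -0.96, -0.77, -0.54, -0.72 and -0.65 in KO tumour mice, and -0.07, -0.37, 0.16, 0.02 and -0.03 in DEN tumour mice. The 5 KO tumour mice were highest of the 18 in both class II and leukocyte markers, and WT liver mouse 4 came next in both.

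The genes whose levels over the 18 mice were most like the mean of H2-Aa, H2-Ab1, H2-Eb1 and Cd74, among 23444 genes compared, were Lat2 (Pearson r = 0.98), Nfatc2, Ptgir, Gpr132 and Il21r (r = 0.97 each). Their log2 fold changes in KO tumours against KO livers were 5.38, 4.42, 2.93, 3.41 and 4.58. Closest to the mean of the class I genes were Slc17a3, Slc22a23, H2-K2, Xiap and Mia3 (r = 0.95 to 0.96), with log2 fold changes of -4.32, -2.76, -1.16, -1.35 and -1.40 in KO tumours against KO livers. Under quantile scaling H2-K2 had -0.15 (adjusted p = 0.51). Within groups r was 0.83 to 0.90 for the first 5 and 0.68 to 0.82 for the other 5.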

How the data were processed

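The labels give 21 arrays in 4 groups. Per the file headers, the authors scanned each array in 1 colour (Cy3) and deposited Agilent Feature Extraction 10.7.3.1 output, whose processed signal is an intensity after background subtraction and detrending, in scanner units and not scaled between arrays. The headers place probes on mm9. The deposited value table holds the authors' log2 values of the same arrays: neither label nor header names its steps, but after each probe was centred on its median over the arrays, log2 processed signals correlated at 0.99968 to 0.99996 with the column of the same array. Its columns have medians of -0.57 to 0.30. The base and centring were read from this match, and a constant shift per array stays unknown.

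From the processed signal, control spots and spots marked as outliers were left out (969 missing values among all probes), log2 was taken, spots of 1 probe were averaged and each array's 75th percentile was subtracted. A probe was kept where 4 or more of the 21 arrays had it well above background (30395). Gene symbols came from RefSeq by accession or symbol, otherwise from the files (8820 probes), and the probe with the highest mean level stood for a gene. Tumours of 1 mouse were averaged, giving 18 mice. One limma 3.58.1 fit in R 4.3.3 with 4 group means and eBayes gave all comparisons, with Benjamini-Hochberg adjustment over 23703 genes. The p-values measure the spread between these mice only. Code was tested on simulated data. The 10 genes and all lists were chosen with earlier results of these data known. From each list other than the markers, up to 2 risen and 2 fallen genes per comparison with the smallest adjusted p could be named, plus a fixed set of marker genes and the 5 genes most like each class. Xcr1, Ccr2, Pax5, Blk, Siglech, Cr2, Cd3d, Cd3g, Cd4, Clec4f, Cd5l, Marco, Vsig4, Timd4, Chil3, Jchain and Spp1 were named after their values were seen. Alternatives were other scalings and background corrections, the authors' values, dim probe filters, the mean of probes, a trended prior, tumours as samples, slide and scan day as blocks (each tumour then a sample), comparisons within a scan day, and each mouse left out. List counts under other scalings and without WT liver mouse 4, and other named genes with each mouse left out, were added after seeing the data. Spots carry no read depth, so signal over background and the number of mice limit the precision.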

Additional observations from a re-analysis of the deposited data

Results flagged for a closer look

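In 3 of the 40 groups of mice examined (10 genes in 4 groups), 1 mouse lay far from the others by Dixon's test, and chance alone gives about 1 in 20 such groups. DEN tumour mouse 1 had the lowest H2-Ab1 level of its group, 4.01, and the lowest H2-Eb1 level, 4.57. DEN tumour mouse 2 had the lowest H2-K1 level of its group, 7.37. Without DEN tumour mouse 1 the difference in Ciita between KO and DEN tumours no longer passed the test (adjusted p = 0.067).

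For 8 of the 10 genes the change from liver to tumour differed between the KO and DEN models by the test of the difference itself. The difference of the log2 fold changes was 2.73 for H2-Aa, 2.26 for H2-Ab1, 1.95 for H2-Eb1, 2.26 for H2-DMa, 2.57 for H2-DMb1, 3.07 for Cd74, -0.88 for H2-K1 and -0.92 for B2m. Under quantile scaling H2-K1 had 0.21 and B2m -0.15. None of the 8 passed with the slide as a random block, and slide and group cannot be told apart for the livers.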

How the results depend on the processing

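Against KO livers and DEN tumours, H2-Aa, H2-Ab1, H2-Eb1, H2-DMa, H2-DMb1 and Cd74 passed the test under every alternative run. H2-K1 turned under quantile scaling, to 0.18 against KO livers, 0.17 against DEN tumours and 0.21 in the difference of tumour effects. With normexp before the 75th percentile scaling, 5799 genes passed against KO livers (12096 in the fit reported), 663 in DEN tumours against WT livers (5093), 142 between the livers (2016) and 1846 in the difference (7322). With the slide as a random block these counts were 6684, 422, 11 and 799, and 0 of the 10 genes passed in the difference. With each tumour a sample and the mouse as a random block, 1163 genes passed between the livers. Leaving out 1 mouse at a time gave 0 to 6 of the 10 genes in DEN tumours against WT livers, and 660 to 2104 genes between the livers. Lower calls made up 65.4% between KO and DEN tumours, but 52.9% under quantile scaling and 84.6% with normexp before the 75th percentile scaling. No paired analysis was possible because no label ties a mouse of 1 group to a mouse of another. B2m in the difference passed in 11 of 31 alternatives, and H2-D1 against DEN tumours in 5 of 25. The causes were not tested. Fold changes of dim genes such as Ciita and Trp53 depend on the background correction.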
